A study of Mus musculus with 11 samples.

Results

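The genes described here are 9 genes of the canonical Wnt pathway in the embryonic mouse dorsal telencephalon, the tissue that forms the neocortex: the feedback targets Axin2, Nkd1, Notum, Sp5 and Lgr5, and the TCF/LEF family of DNA-binding factors, Lef1, Tcf7, Tcf7l1 and Tcf7l2. They were chosen by name as a listed set, and all 9 were matched to a single identifier among the 46078 genes in each count file. Polyadenylated RNA had been sequenced from 11 libraries in 5 groups. The tested groups were cells or tissue with altered L3mbtl3, which encodes an MBT-domain protein that interacts with the Polycomb complex PRC1. In the gain libraries (n = 3), wild-type CD-1 embryos had been electroporated in utero at E12.5 with pCIG2-L3mbtl3, a plasmid that expresses L3mbtl3 together with GFP, and the GFP+ cells of the dorsal telencephalon were sorted at E15.5. Their GFP controls (n = 3) received the empty pCIG2 plasmid and were sorted for GFP in the same way. The remaining 5 libraries came from microdissected dorsal telencephalon of CD-1 embryos at E12.5, with no sorting and no electroporation: 2 labelled L3mbtl3 knockout, 2 labelled heterozygote and 1 labelled wild-type. The heterozygotes and the wild-type are together the E12.5 controls (n = 3), as in the series' design, so most of these controls carry 1 mutant allele. The kind of mutant allele is not given in the sources used here, and CD15+ samples of E14.5 named in the design are not analysed here.

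In canonical Wnt signalling, secreted Wnt ligands bind Frizzled receptors and LRP co-receptors, which stops a cytoplasmic complex built on Axin and APC from marking beta-catenin for destruction. Beta-catenin then binds TCF/LEF factors on DNA and turns on target genes, several of which encode inhibitors of the pathway itself and so act as negative feedback. In the early dorsal telencephalon the main source of Wnt ligands is the cortical hem at the medial edge, and the signal is known for sustaining progenitor division and for specifying the hippocampus next to the hem.

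Promoters bear on this set because TCF/LEF factors recognise a short core sequence. Windows of 300 bases (250 before and 50 after an annotated start, RefSeq, build GRCm38.p6) were held for 7 of the 9 genes, 12 windows in all, and not for Notum or Lgr5. The motif searched, on both strands, was CTTTGAA together with the forms that end in AT, TA or TT in place of AA; matches on opposite strands can share no more than these end letters. At least 1 of them was present in 3 of the 12 windows, against 16.9% of all 32851 windows in the table, and at least 2 were present in 1.94% of all windows. The Sp5 window (chr2:70474673-70474972, plus strand) held a pair, 222 and 104 bases before the start. A downstream start inside Lef1 (chr3:131156044-131156343, plus strand) had a match 147 bases before it, and a downstream start inside Tcf7l2 (chr19:55895071-55895370, plus strand) had a match 14 bases before it. These 3 windows are printed because they hold the matches, and that of Axin2 (chr11:108920099-108920398, plus strand) because it is the best-known feedback target of the set and had no match in this window. Capitals mark the motif on the strand shown, 5′ to 3′. A match is a description of the letters and not a site of binding, and no binding was measured in these samples.
Sp5: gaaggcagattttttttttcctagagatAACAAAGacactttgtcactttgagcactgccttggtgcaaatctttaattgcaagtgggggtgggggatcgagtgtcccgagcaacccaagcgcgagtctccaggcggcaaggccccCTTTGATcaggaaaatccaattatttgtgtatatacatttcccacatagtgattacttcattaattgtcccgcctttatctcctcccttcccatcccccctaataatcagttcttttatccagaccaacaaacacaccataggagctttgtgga
Lef1, downstream start: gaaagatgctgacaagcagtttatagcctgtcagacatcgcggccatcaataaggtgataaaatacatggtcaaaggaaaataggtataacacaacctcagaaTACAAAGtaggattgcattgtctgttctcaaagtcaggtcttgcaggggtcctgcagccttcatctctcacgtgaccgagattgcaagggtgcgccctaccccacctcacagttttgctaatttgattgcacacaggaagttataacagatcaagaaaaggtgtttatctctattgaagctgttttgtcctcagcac
Tcf7l2, downstream start: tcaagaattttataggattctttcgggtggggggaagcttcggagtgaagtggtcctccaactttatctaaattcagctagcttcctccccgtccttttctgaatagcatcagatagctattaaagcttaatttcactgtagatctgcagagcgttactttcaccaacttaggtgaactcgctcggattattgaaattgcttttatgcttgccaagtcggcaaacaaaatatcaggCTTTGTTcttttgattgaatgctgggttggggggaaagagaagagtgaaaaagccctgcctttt
Axin2: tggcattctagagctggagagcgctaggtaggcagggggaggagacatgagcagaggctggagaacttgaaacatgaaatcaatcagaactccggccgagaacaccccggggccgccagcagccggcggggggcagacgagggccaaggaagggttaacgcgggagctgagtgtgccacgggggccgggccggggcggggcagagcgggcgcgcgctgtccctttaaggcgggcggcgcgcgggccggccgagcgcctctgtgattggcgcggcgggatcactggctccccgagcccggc

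Library totals ran from 18951220 to 20895655 counts in the gain libraries, from 18266535 to 20863979 in the GFP controls, from 20374888 to 21490161 in the libraries labelled knockout, and from 16527551 to 26658718 in the E12.5 controls. Levels below are read counts scaled to library size and given as CPM with TMM scaling factors over all 11 libraries, and 3 counts, the limit that a count of 0 allows, corresponded to 0.102 to 0.178 CPM. That limit covers counting error only. Genes were tested with edgeR's quasi-likelihood test and are said to be called, or to have risen or fallen, at a Benjamini-Hochberg adjusted p under 0.05 over all genes tested. L3mbtl3 itself checked the labels of the gain libraries, with 1226 ± 311 CPM in them and 54.8 ± 4.90 CPM in the GFP controls (SD, n = 3 each). It did not check those of the knockout: L3mbtl3 had 67.2 and 70.5 CPM in the libraries labelled knockout and 55.8, 58.0 and 58.3 CPM in the E12.5 controls, a rise of 0.27 on the log2 scale (SE 0.0539; adjusted p = 0.0128 by edgeR), so any direction given for those libraries rests on their label. The 2 libraries labelled knockout also differed in inferred sex, and gain held 2 female libraries and 1 male, while all GFP and E12.5 controls were male. The labels do not say whether libraries of a group came from different embryos, and p-values then measure no more than the spread between these libraries.

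The 8 markers of the dorsal telencephalon, among them Emx1 and Pax6, had a summed level of 2833 to 3106 CPM in gain, 2246 to 3424 CPM in GFP controls, 1476 to 1602 CPM in the libraries labelled knockout and 1670 to 1708 CPM in the E12.5 controls, and none of the 8 was at 0 in every library of a group. The E12.5 tissue also held other cells that the sorted cells nearly lacked. Cortical hem markers summed to 19.3 to 43.8 CPM in GFP controls and 279 to 299 CPM in E12.5 controls, with Wnt3a at 0 in every E15.5 library. Endothelial and pericyte markers summed to 22.9 to 27.5 CPM in GFP controls and 535 to 639 CPM in E12.5 controls, and meningeal markers to 8.89 to 62.2 CPM in GFP controls and 1599 to 1785 CPM in E12.5 controls.

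Axin2 and Nkd1 were the most abundant of the 9 genes in every group, and their order differed between the ages. Compared per kilobase of exon, the mean levels in the GFP controls at E15.5 were 9.83 CPM per kb for Nkd1, 3.98 for Axin2, 1.79 for Tcf7l1, 1.30 for Tcf7, 0.581 for Tcf7l2, 0.175 for Lef1, 0.172 for Sp5, 0.0448 for Notum and 0.00683 for Lgr5. In the E12.5 controls Axin2 led with 18.1 CPM per kb, followed by Nkd1 with 12.6, Tcf7l1 with 8.41, Tcf7 with 5.87, Lef1 with 3.78, Sp5 with 3.64, Tcf7l2 with 3.02, Notum with 0.421 and Lgr5 with 0.0482. Among neighbours in the E12.5 order, Lef1, Sp5 and Tcf7l2 had library ranges that overlapped, and the other neighbours did not overlap. Among neighbours in the GFP control order, the ranges of Tcf7l1 and Tcf7 overlapped, as did those of Lef1 and Sp5 and of Sp5 and Notum. The ratio of Axin2 to Nkd1, taken per kilobase and chosen after these levels were seen, was 0.309 to 0.319 in gain, 0.358 to 0.468 in GFP controls, 1.49 to 1.61 in the libraries labelled knockout, 1.45 to 1.55 in the heterozygotes and 1.32 in the wild-type.

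**Figure D1:**
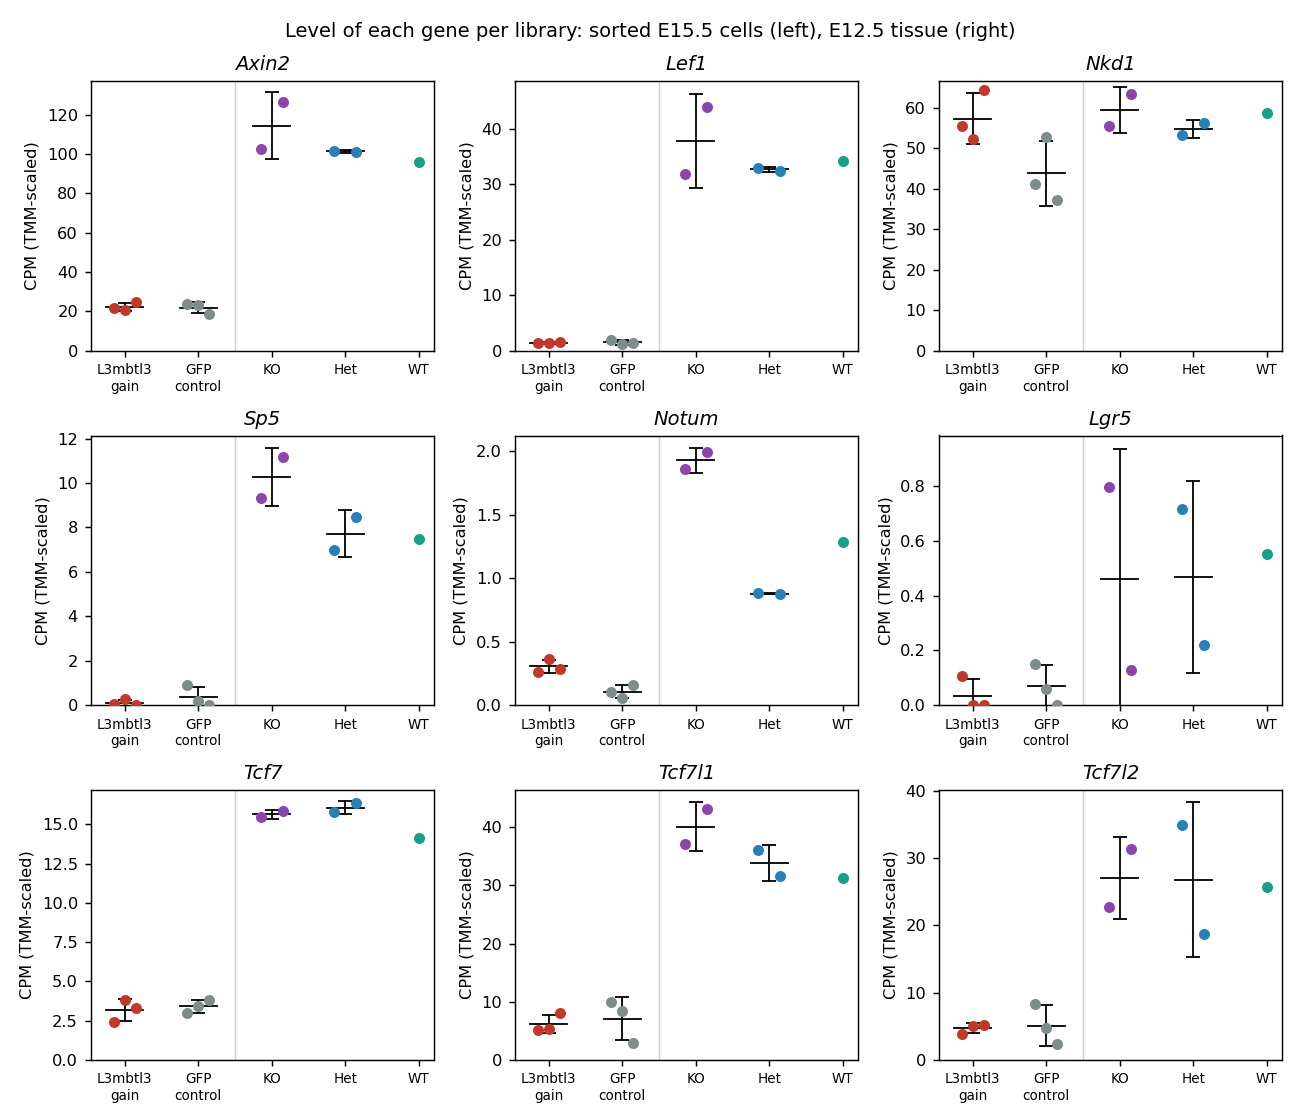
Level of each of the 9 genes in CPM with TMM factors, by group, on linear axes that start at 0. Points are libraries, and bars are the mean ± SD where a group has more than 1 library (WT has 1). For Axin2, Lef1, Sp5, Notum, Tcf7, Tcf7l1 and Tcf7l2 every E12.5 library lies above every E15.5 library, while Nkd1 has similar levels at both ages.

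Most of the 9 genes were lower in E15.5 sorted cells than in E12.5 tissue. Of the 8 genes that passed the filter on low counts, 7 were called lower in the GFP controls at E15.5 than in the E12.5 controls, where 31.3% of all 15968 genes tested were called lower and 62.3% were called in either direction. The median log2 fold change of the 8 was -2.30, against -0.02 for all genes tested. Lef1, Sp5 and Notum had the lowest fold changes, and Nkd1 was the gene that was not called. This comparison sets stage beside sorting, electroporation and tissue makeup, and these cannot be told apart: fewer cells of a type and less RNA per cell also cannot be told apart in bulk samples.

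Among the feedback targets, Axin2 is a scaffold of the destruction complex. It had 23.8, 23.4 and 18.6 CPM in the GFP controls, against 102, 101 and 96.0 CPM in the E12.5 controls. All 3 GFP controls lay far below all 3 E12.5 controls, with a log2 fold change of -2.18 (SE 0.114; adjusted p = 3.58e-05 by edgeR), or 4.53-fold. Sp5, a zinc-finger transcription factor that is known as a repressor downstream of beta-catenin, had 18, 3 and 0 counts (0.905, 0.178 and 0 CPM) in the GFP controls, against 205, 155 and 163 counts (6.97, 8.48 and 7.47 CPM) in the E12.5 controls. The GFP controls were near the limit of detection except for GFP replicate 1, and the log2 fold change was -4.33 (SE 0.774; adjusted p = 0.00297 by edgeR). Without GFP replicate 1 the log2 fold change of Sp5 was -6.38, so the size of the fall depended on that library.

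Notum, a secreted enzyme that removes the lipid from Wnt ligands and so inactivates them, was scarce at both ages. It had 2, 1 and 3 counts in the GFP controls, against 26, 16 and 28 counts in the E12.5 controls, which is 0.108 ± 0.0524 CPM in GFP controls and 1.01 ± 0.233 CPM in E12.5 controls (SD, n = 3 each). Every GFP control was below every E12.5 control, and the log2 fold change was -3.15 (SE 0.479; adjusted p = 0.00143 by edgeR). Lgr5, a receptor for R-spondins and a marker of Wnt-dependent stem cells in adult epithelia, was barely detected in either group. It had 3, 1 and 0 counts in the GFP controls, against 21, 4 and 12 counts in the E12.5 controls, and did not pass the filter, so it was not tested.

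Nkd1, which binds Dishevelled and dampens the signal, was the exception. It had 41.2, 52.9 and 37.3 CPM in the GFP controls, against 53.3, 56.3 and 58.8 CPM in the E12.5 controls. The groups did not overlap, although GFP replicate 2 came close to heterozygote replicate 1. All GFP controls lay below all E12.5 controls for 37.5% of all genes tested. The log2 fold change was -0.35 (SE 0.139) and was not called (edgeR adjusted p = 0.0617), while 4 other scalings or models put Nkd1 under the threshold with log2 fold changes of -0.36 to -0.62.

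All 4 TCF/LEF genes fell. Lef1, which is known for its part in hippocampal development, had 40, 21 and 25 counts (2.01, 1.25 and 1.36 CPM) in the GFP controls, against 970, 592 and 746 counts (33.0, 32.4 and 34.2 CPM) in the E12.5 controls. The E12.5 controls were tightly grouped, and the log2 fold change was -4.41 (SE 0.200; adjusted p = 2.80e-05 by edgeR), or 21.3-fold. Tcf7, the other member usually counted as an activator, had 2.97, 3.44 and 3.81 CPM in the GFP controls, against 15.8, 16.4 and 14.1 CPM in the E12.5 controls. It fell by 2.17 on the log2 scale (SE 0.167; adjusted p = 9.53e-05 by edgeR), with little spread within either group.

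Tcf7l1, known mainly as a repressor in early progenitors, had 9.86, 8.36 and 2.83 CPM in the GFP controls, against 36.1, 31.7 and 31.2 CPM in the E12.5 controls. Tcf7l2, which in the brain is best known from the thalamus, had 8.25, 4.68 and 2.29 CPM in the GFP controls, against 34.9, 18.7 and 25.7 CPM in the E12.5 controls. GFP replicate 3 was the lowest library for both genes and GFP replicate 1 the highest, and no GFP control reached an E12.5 control. Tcf7l1 fell by 2.23 on the log2 scale (SE 0.409; adjusted p = 0.00330 by edgeR) and Tcf7l2 fell by 2.37 (SE 0.462; adjusted p = 0.00423 by edgeR).

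The makeup of the TCF/LEF family was described from the same libraries as the share of each gene in the family's summed CPM per kb. The sum was 3.84 ± 1.14 CPM per kb in the GFP controls and 21.1 ± 1.63 in the E12.5 controls (SD, n = 3 each). Lef1 made up 3.44% to 5.98% of it in the GFP controls, against 16.3% to 19.3% in the E12.5 controls, 2 ranges that do not overlap. Tcf7 made up 23.5% to 56.1% in the GFP controls, against 26.2% to 31.0% in the E12.5 controls, and Tcf7l1 27.9% to 52.2% in the GFP controls, against 39.5% to 40.1% in the E12.5 controls. The shares of Tcf7 and Tcf7l1 thus varied more among the GFP controls than between the ages, and GFP replicate 3 was the only GFP control with more Tcf7 than Tcf7l1.

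**Figure D2:**
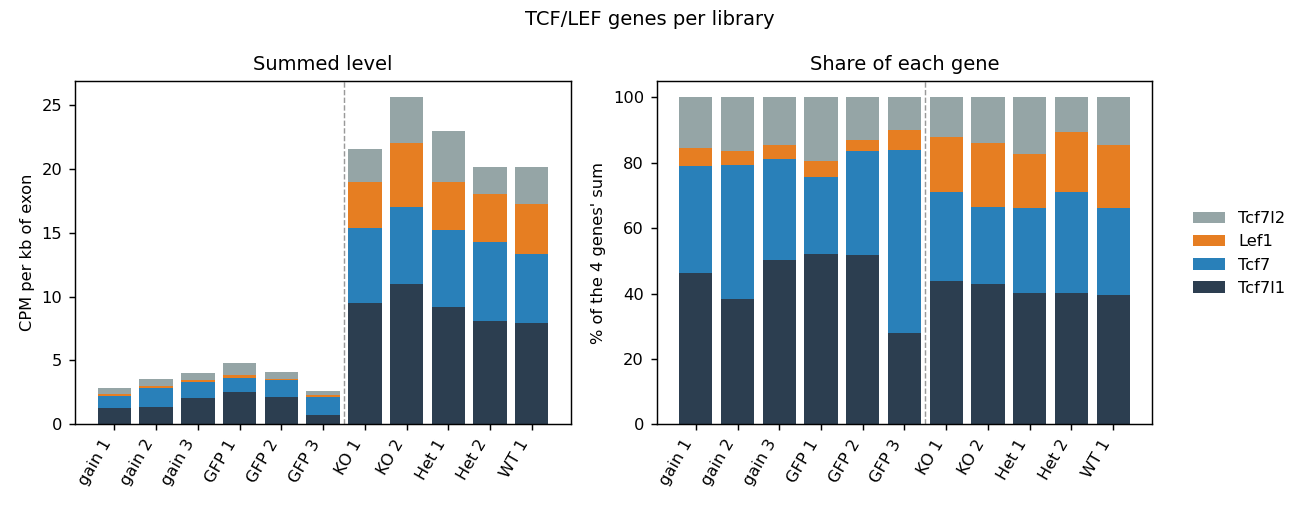
Summed level of the 4 TCF/LEF genes in each library in CPM per kb of exon (left) and the share of each gene in that sum in percent (right); the dashed line separates E15.5 sorted cells from E12.5 tissue. The E15.5 bars reach 2.59 to 4.82 CPM per kb and the E12.5 bars 20.1 to 25.6, and the Lef1 share is smaller in every E15.5 library.

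In the E12.5 tissue, no member was called between the libraries labelled knockout and the E12.5 controls, although most had a slightly higher level in the libraries labelled knockout. With edgeR 0 of 9 members passed the threshold, where 7.41% of all 16361 genes tested did (3.63% higher and 3.78% lower). By the same test 4 of the 9 had an unadjusted p under 0.05, where 3597 of all 16361 genes tested did. These 4 were Axin2, Sp5, Notum and Tcf7l1, and DESeq2 also called 0 of the 9. Of the 9 log2 fold changes 8 were positive, with a median of 0.19 against -0.00 over all genes tested. Both libraries labelled knockout lay above all 3 controls for those same 4 genes, an arrangement found for 19.1% of all genes tested.

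Notum had the largest fold change of the set, with 42 and 47 counts (1.86 and 2.00 CPM) in the libraries labelled knockout, against 26 and 16 counts (0.884 and 0.876 CPM) in the heterozygotes and 28 counts (1.28 CPM) in the wild-type. The 2 libraries labelled knockout were close together and above all controls, with a log2 fold change of 0.93 (SE 0.258; adjusted p = 0.0507 by edgeR), just outside the threshold. Sp5 had 9.34 and 11.2 CPM in the libraries labelled knockout, against 6.97 and 8.48 CPM in the heterozygotes and 7.47 CPM in the wild-type. Its log2 fold change was 0.44 (SE 0.126; adjusted p = 0.0584 by edgeR), and knockout replicate 1 exceeded the highest heterozygote by less than the libraries labelled knockout differed from each other.

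Axin2 had 102 and 127 CPM in the libraries labelled knockout, against 102 and 101 CPM in the heterozygotes and 96.0 CPM in the wild-type. Knockout replicate 1 was level with the heterozygotes and knockout replicate 2 stood above them, which gave a log2 fold change of 0.20 (SE 0.0803; adjusted p = 0.187 by edgeR). Tcf7l1 had 37.1 and 43.1 CPM in the libraries labelled knockout, against 36.1 and 31.7 CPM in the heterozygotes and 31.2 CPM in the wild-type, with a log2 fold change of 0.28 (SE 0.0818; adjusted p = 0.0666 by edgeR). Lef1 showed the same split between the libraries labelled knockout, with 31.8 and 43.8 CPM in them, against 33.0 and 32.4 CPM in the heterozygotes and 34.2 CPM in the wild-type. Its log2 fold change was 0.19 (SE 0.123; adjusted p = 0.434 by edgeR), and knockout replicate 1 was the lowest of the 5 libraries.

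The remaining genes had small fold changes or wide errors. Nkd1 had 55.5 and 63.5 CPM in the libraries labelled knockout, against 53.3 and 56.3 CPM in the heterozygotes and 58.8 CPM in the wild-type, a log2 fold change of 0.09 (SE 0.0690). Tcf7 had 15.4 and 15.8 CPM in the libraries labelled knockout, against 15.8 and 16.4 CPM in the heterozygotes and 14.1 CPM in the wild-type, a log2 fold change of 0.02 (SE 0.0883). For both genes the groups overlapped. Tcf7l2 had 22.8 and 31.3 CPM in the libraries labelled knockout, against 34.9 and 18.7 CPM in the heterozygotes and 25.7 CPM in the wild-type, so the heterozygotes alone spanned the other libraries. Lgr5 had 18 and 3 counts in the libraries labelled knockout, against 21 and 4 counts in the heterozygotes and 12 counts in the wild-type, and its log2 fold change of -0.19 had an SE of 0.675.

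These values differed between the libraries labelled knockout. In 8 of the 9 genes knockout replicate 2 was higher than knockout replicate 1, the exception being Lgr5. The share of all genes with that order was not computed, so this count does not separate these genes from the rest. Without knockout replicate 1, the log2 fold change was 0.35 for Axin2, 0.40 for Lef1, 0.56 for Sp5 and 0.38 for Tcf7l1. Without knockout replicate 2, which leaves 4 male libraries, it was 0.04 for Axin2, -0.06 for Lef1, 0.30 for Sp5 and 0.17 for Tcf7l1. Cortical hem markers summed to 312 CPM in knockout replicate 1 and 390 CPM in knockout replicate 2. They summed to 279 to 299 CPM in the E12.5 controls. Of the 9 hem markers 2 were called higher, the ligand genes Wnt8b and Rspo2. Rspo2 was near the threshold (edgeR adjusted p = 0.0461), and DESeq2 also called it (adjusted p = 0.00103). By edgeR it was not called without heterozygote replicate 1 (adjusted p = 0.110), heterozygote replicate 2 (0.0548) or the wild-type library (0.153). Nor was it called with a sex term (edgeR adjusted p = 0.115) or in the joint fit of all 11 libraries. Choroid plexus markers summed to 266 to 269 CPM in the libraries labelled knockout and 555 to 631 CPM in the E12.5 controls, with 8 of 10 tested called lower. Ventral telencephalon markers summed to 103 CPM in knockout replicate 1 and 74.8 CPM in knockout replicate 2, against 40.5 to 65.5 CPM in the E12.5 controls, with 3 of 9 tested called higher (median log2 0.84). Knockout replicate 2 was also the female library. The part of the hem share, the choroid plexus share, the ventral share or sex in the values of the 9 genes was not tested.

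**Figure D3:**
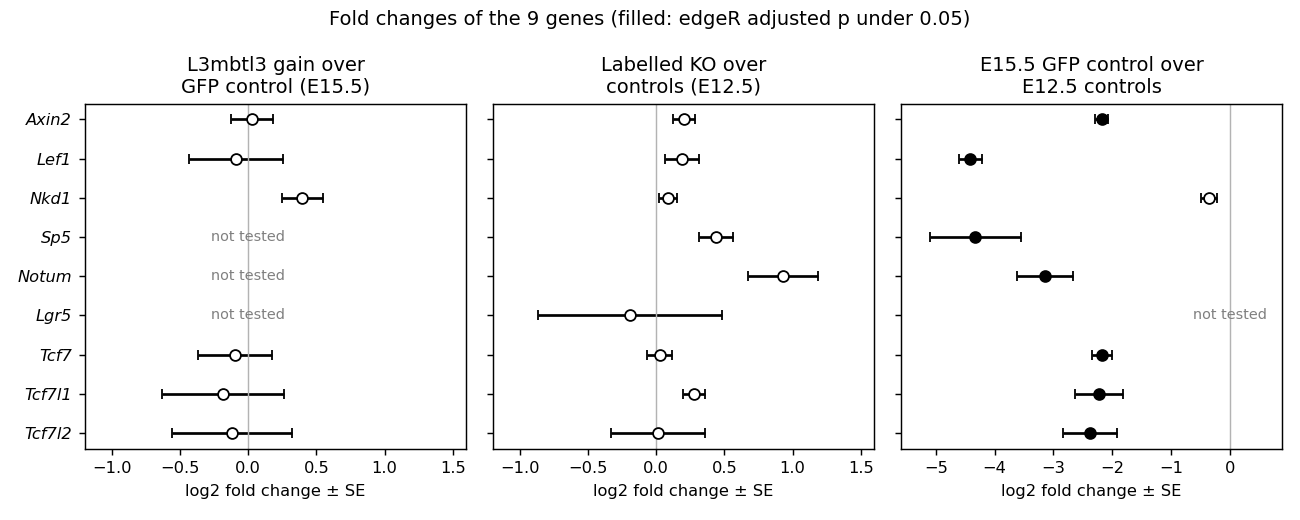
Log2 fold change ± SE from edgeR of the members tested in each of the 3 comparisons (6 in gain, all 9 in knockout and 8 in E15.5 against E12.5, with no point for the others); filled points had an adjusted p under 0.05, and the third axis has a wider range than the others. No point is filled in the gain or knockout panel, and all points but that of Nkd1 are filled in the panel of E15.5 against E12.5.

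Tcf7l2 was the gene that varied most among the E12.5 controls after Lgr5, by 1.87 times between the highest and the lowest library. Its order over the 5 E12.5 libraries followed that of 8 diencephalon markers (a description over 5 libraries, with no test). Heterozygote replicate 1 had 34.9 CPM of Tcf7l2 and 36.2 CPM of the markers, knockout replicate 2 had 31.3 and 33.9, the wild-type 25.7 and 19.9, knockout replicate 1 22.8 and 12.8, and heterozygote replicate 2 18.7 and 11.6. In the sorted cells the diencephalon markers summed to at most 1.46 CPM, and markers of the ventral telencephalon such as Dlx2 and Gad1 varied instead. They summed to 217, 211 and 12.8 CPM in gain, against 820, 262 and 15.0 CPM in the GFP controls, where Tcf7l2 stood at 3.85, 5.06 and 5.12 CPM in gain and 8.25, 4.68 and 2.29 CPM in the GFP controls. The order thus matched among the GFP controls and did not among the gain libraries. The part of neighbouring tissue in the level of Tcf7l2 was not tested.

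**Figure D4:**
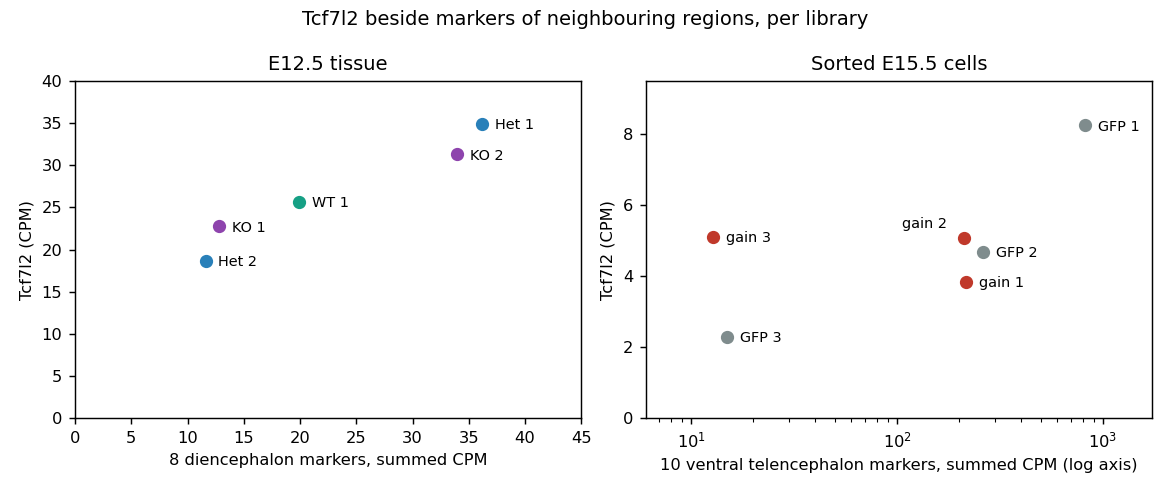
Tcf7l2 level in CPM against the summed CPM of diencephalon markers in E12.5 tissue (left) and of ventral telencephalon markers in sorted E15.5 cells (right, log axis); each point is a library. On the left Tcf7l2 runs between 18.7 and 34.9 CPM in the same order as the markers, and on the right GFP 1 is the highest library on both axes.

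In the sorted cells, forced expression of L3mbtl3 came with no called change of these genes. Of the 9 members 6 passed the filter, and edgeR called 0 of them, where it called 0.0136% of all genes tested, which is 2 of 14698. At an unadjusted p under 0.05 there were 1264 genes, of which 1 was a member (Nkd1), and DESeq2 called 81 genes and 0 members. The median log2 fold change of the 6 was -0.09, against -0.03 for all genes tested. With so few genes called in all, the count of 0 does not separate these genes from the rest.

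Nkd1 had 55.4, 52.2 and 64.4 CPM in the gain libraries, against 41.2, 52.9 and 37.3 CPM in the GFP controls. The groups overlapped because GFP replicate 2 was above gain replicate 2, and the log2 fold change was 0.40 (SE 0.151; unadjusted p = 0.0320 and adjusted p = 0.559 by edgeR). Axin2 had 21.6, 20.6 and 24.6 CPM in the gain libraries, against 23.8, 23.4 and 18.6 CPM in the GFP controls, a log2 fold change of 0.03 (SE 0.151; adjusted p = 0.953 by edgeR). The ratio of Axin2 to Nkd1 was lower in every gain library than in any GFP control, by the ranges given above, and was not tested.

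The TCF/LEF genes were low in both sorted groups. Lef1 had 26, 26 and 28 counts in the gain libraries, against 40, 21 and 25 counts in the GFP controls, and its log2 fold change was -0.09 (SE 0.346). Tcf7 had 2.42, 3.81 and 3.28 CPM in the gain libraries, against 2.97, 3.44 and 3.81 CPM in the GFP controls, a log2 fold change of -0.10 (SE 0.270). Tcf7l1 had 5.16, 5.32 and 7.99 CPM in the gain libraries, against 9.86, 8.36 and 2.83 CPM in the GFP controls, a log2 fold change of -0.18 (SE 0.447). For Tcf7l1 and Tcf7l2 the GFP controls spanned all gain libraries, and the SE of Tcf7l2, 0.442 on the log2 scale, was of the same size. Their sum was 3.48 ± 0.611 CPM per kb in gain and 3.84 ± 1.14 in the GFP controls (SD, n = 3 each).

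Sp5, Notum and Lgr5 did not pass the filter in this comparison. Sp5 had 1, 5 and 0 counts in the gain libraries, against 18, 3 and 0 in the GFP controls, and GFP replicate 1 held most of them. Lgr5 had 2, 0 and 0 counts in the gain libraries, against 3, 1 and 0 in the GFP controls. Notum had 5, 7 and 5 counts in the gain libraries, against 2, 1 and 3 in the GFP controls, which is the only one of the 3 in which the groups did not overlap. Among the genes tested, 9.13% had all gain libraries above all GFP controls. Without the filter on low counts, the log2 fold change of Notum was 1.45 with an edgeR adjusted p of 0.723. In the joint edgeR fit of all 11 libraries it was 1.44 (SE 0.498; adjusted p = 0.205).

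The rest of the pathway was described with 6 lists of 91 genes in all beside the 9. The lists overlap, so counts per list do not add up to those over the 91. Apcdd1, Znrf3, Rnf43 and Dkk1 are on both the inhibitor and target lists, and Nkd2 is on the cytoplasmic and target lists. Between E15.5 GFP controls and E12.5 controls, 73 of the 91 were tested, 26 were called higher and 34 lower, and the direction differed by role. Of 16 ligand and secretion genes 11 were called lower and 2 higher (median log2 -2.88), of 13 receptor genes 8 lower and 2 higher (median -0.95), of 13 extracellular and receptor-level inhibitors 9 lower and 1 higher (median -2.51), and of 10 other reported targets 8 lower and 1 higher (median -1.64). Of 17 cytoplasmic genes 2 were called lower and 12 higher (median 0.41), and of 9 nuclear cofactors 1 lower and 8 higher (median 1.03). Over all genes tested 31.3% were called lower and 31.1% higher. With library totals in place of TMM factors 37 of the 91 genes were called lower and 18 higher, and the cytoplasmic genes split into 4 lower and 8 higher.

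Among the ligands, Wnt3a was at 0 in all GFP controls and averaged 11.3 ± 0.629 CPM in the E12.5 controls (SD, n = 3 each). Wnt2b averaged 0.0503 ± 0.0871 CPM in the GFP controls and 15.8 ± 0.798 CPM in the E12.5 controls, and the R-spondin gene Rspo1 0.169 ± 0.179 CPM in the GFP controls and 31.3 ± 2.16 CPM in the E12.5 controls. All 3 are also markers of the cortical hem, and all 9 hem markers were called lower in the GFP controls. Porcn, the enzyme that attaches the lipid to Wnt ligands, rose instead by 1.81 on the log2 scale (SE 0.106; adjusted p = 4.15e-05 by edgeR). Among the receptors, Fzd9 fell by 1.94 (SE 0.213), Fzd4 fell by 3.07 (SE 0.222), Fzd6 fell by 4.60 (SE 0.393) and Fzd10 fell by 5.74 (SE 0.275).

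Inhibitors that are themselves reported targets fell alongside Axin2. Apcdd1, a membrane protein that binds Wnt ligands and LRP, averaged 22.0 ± 5.05 CPM in the GFP controls and 126 ± 8.55 CPM in the E12.5 controls, with a log2 fold change of -2.51 (SE 0.173; adjusted p = 7.33e-05 by edgeR). Znrf3, a ubiquitin ligase that removes Frizzled receptors from the membrane, fell by 1.24 (SE 0.163). Tnfrsf19, another reported target, averaged 28.3 ± 3.75 CPM in the GFP controls and 266 ± 1.05 CPM in the E12.5 controls, with a log2 fold change of -3.23 (SE 0.115). The secreted inhibitor gene Frzb averaged 0.215 ± 0.290 CPM in the GFP controls, against 18.4 ± 2.19 CPM in the E12.5 controls, and Wif1 averaged 0.0671 ± 0.116 CPM in the GFP controls, against 7.51 ± 0.618 CPM in the E12.5 controls.

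The genes called higher in the GFP controls than in the E12.5 controls included Apc2, a neuronal relative of APC. It averaged 1058 ± 66.1 CPM in the GFP controls and 197 ± 10.4 CPM in the E12.5 controls, a rise of 2.43 on the log2 scale (SE 0.0889, adjusted p = 2.09e-05 by edgeR). The Dishevelled genes Dvl1 and Dvl2 rose by 1.36 (SE 0.0736) and 1.14 (SE 0.0782), and the kinase gene Csnk1e by 1.53 (SE 0.114). Among the nuclear cofactors, the Groucho-type co-repressor genes Tle2 and Tle3, whose products bind TCF/LEF factors, rose by 2.10 (SE 0.189) and 1.75 (SE 0.117). Ctnnbip1, which encodes an inhibitor of the binding of beta-catenin to TCF, rose by 1.19 (SE 0.141), and the beta-catenin co-factor gene Bcl9 by 0.58 (SE 0.0711). Endothelial, meningeal, choroid plexus and diencephalon markers were called lower in the GFP controls for all tested (15 of 15, 10 of 10, 10 of 10 and 6 of 6), and their part in these differences was not tested.

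**Figure D5:**
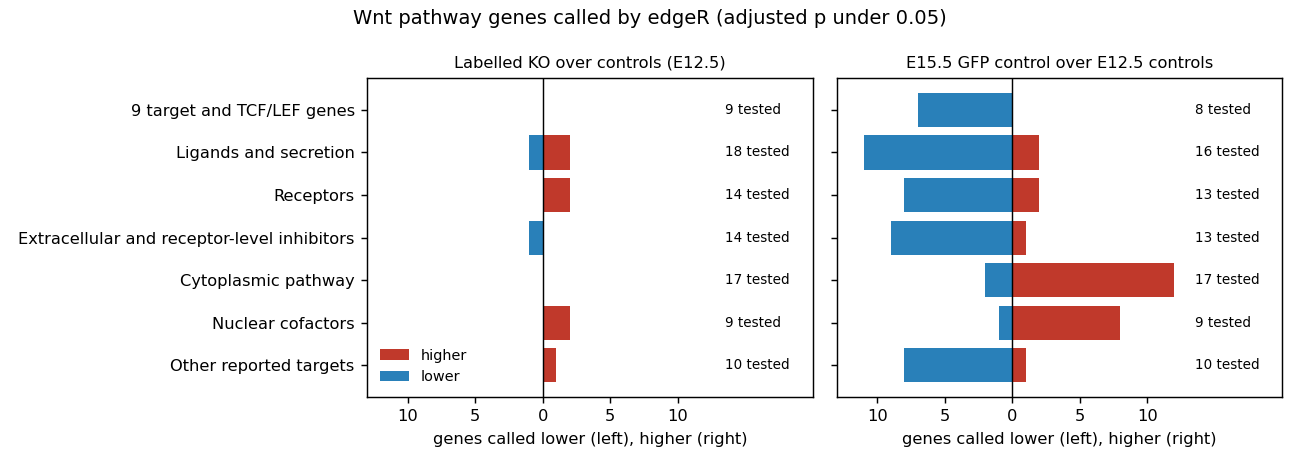
Number of genes called by edgeR (adjusted p under 0.05) in the 9-gene set and in 6 lists of other Wnt pathway genes, with bars to the left for lower and to the right for higher; the number tested stands beside each bar. In the right panel, ligands, receptors, inhibitors and targets have more genes to the left, and cytoplasmic and nuclear genes have more to the right.

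In the libraries labelled knockout, 77 of the 91 genes were tested, 7 were called higher and 2 lower, against 3.63% higher and 3.78% lower over all genes tested. Cyclin gene Ccnd1, a reported target, averaged 383 ± 1.83 CPM in the libraries labelled knockout (n = 2) and 241 ± 25.9 CPM in the E12.5 controls (n = 3, both SD), a rise of 0.67 on the log2 scale (SE 0.0786; adjusted p = 0.00356 by edgeR). The fold change of Ccnd1 was 0.66 to 0.67, but not called, without knockout replicate 1 (edgeR adjusted p = 0.105), without knockout replicate 2 (0.169), with a sex term (0.155) and in the joint fit of all 11 libraries (0.888). Wnt8b averaged 69.3 ± 11.1 CPM in the libraries labelled knockout and 45.4 ± 2.72 CPM in the E12.5 controls, a rise of 0.61 (SE 0.0953; adjusted p = 0.00745 by edgeR). Fzd7 rose by 0.39 (SE 0.0755), Fzd5 by 0.80 (SE 0.216), Rspo2 by 0.41 (SE 0.0994), Tle4 by 0.25 (SE 0.0560) and Tle1 by 0.20 (SE 0.0511). Wnt4 fell by 1.23 (SE 0.272), and Sostdc1, a secreted inhibitor that is also on the choroid plexus list, fell by 0.60 (SE 0.122). Of the 17 cytoplasmic genes edgeR and DESeq2 each called 0. By edgeR 6 of the 17 had an unadjusted p under 0.05, where 3597 of all 16361 genes tested did. Among the 6 were Apc at -0.17 (edgeR adjusted p = 0.0798) and Dvl3 at 0.16 (edgeR adjusted p = 0.0892). These counts depended on single libraries and on the model. Knockout replicate 2 was the only female E12.5 library, so a sex term and leaving that library out are not separate checks. Fits without a knockout library leave 1 library in that group, so list counts from them are not given. With a sex term 4 of the 91 were called higher and 4 lower. Without the wild-type library there were 3 higher (Ccnd1, Fzd7 and Wnt8b) and 0 lower. All genes called then numbered 603, against 1213 with no library left out. Without heterozygote replicate 2 there were 4 higher and 1 lower. With no filter on low counts 14 were called higher and 5 lower. The number of all genes called also moved with the setting, as given in the closing section. These changes in count thus do not separate the lists from the rest. The joint fit of all 11 libraries called 0 of 77, with 4 at an unadjusted p under 0.05. Wnt8b was called higher in each of these alternatives except the joint fit.

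In the gain comparison edgeR called 0 of 61 tested genes of the lists, where it called 2 of 14698 genes in all. An unadjusted p under 0.05 was found for 6 of the 61, where 1264 of the 14698 had one. The smallest p in the inhibitor and target lists belonged to Apcdd1, with 8.19 ± 2.12 CPM in the gain libraries and 22.0 ± 5.05 CPM in the GFP controls (SD, n = 3 each), a log2 fold change of -1.42 (SE 0.258; adjusted p = 0.457 by edgeR). Apcdd1 was the 1 list gene that DESeq2 called (-1.42, adjusted p = 0.000186) and the 1 called in the joint edgeR fit of all 11 libraries (-1.43, adjusted p = 0.0270). Without GFP replicate 1, edgeR called it lower (-1.22, adjusted p = 0.0493), and called Fzd3 (0.77) and Apc (0.52) higher. Without that library 415 genes were called in all, so these calls do not separate the lists from the rest. Among the receptors Fzd3 stood at 0.54 (SE 0.184) and Fzd1 at 0.43 (SE 0.153), and among the ligands Wnt7a at -0.75 (SE 0.344) and Wnt3 at -0.86 (SE 0.441). In the cytoplasm Apc stood at 0.38 (SE 0.127) and Gsk3b at 0.27 (SE 0.103), and among the nuclear cofactors Pygo1 at 0.29 (SE 0.0756) and Tle3 at -0.26 (SE 0.114). Markers of microglia summed to 5.96 to 9.13 CPM in the gain libraries and 15.8 to 41.1 CPM in the GFP controls, and all 10 tested endothelial markers were lower in gain (median log2 -1.22), although none was called. The part of such cells in these values was not tested.

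The genes whose pattern over the 11 libraries lay closest to each member were found by the root mean square difference of log2(CPM + 0.5), centred on each gene's mean. Candidates were 12859 protein-coding genes with a mean of at least 1 CPM. Closest to Axin2 was Emx2, a homeobox gene of the dorsal telencephalon, at 0.128, followed by Pdk3 at 0.150. Emx2 was called lower in the GFP controls, with 28.1 ± 7.12 CPM in them and 123 ± 2.21 CPM in the E12.5 controls. It was also called in the libraries labelled knockout, where it rose by 0.29 on the log2 scale (SE 0.0591, adjusted p = 0.0162 by edgeR). Lef1 lay closest to She (0.155) and Wnt9a (0.164), Nkd1 to Ero1l (0.110) and Rgl1 (0.121), and Sp5 to Arhgap31 (0.192) and Il17rd (0.210). Tcf7 lay closest to Slc2a1 (0.118) and Mast4 (0.140), Tcf7l1 to Nqo2 (0.153) and Add3 (0.174), and Tcf7l2 to Lamb2 (0.201) and Crb2 (0.215). Notum and Lgr5 had mean levels too low for this measure. These distances mostly follow the gap between the ages, which the libraries share with sorting and tissue makeup.

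The genes lie on 7 chromosomes of GRCm38. Axin2 spans chr11:108920349-108950783 on the plus strand, Tcf7 chr11:52252371-52283014 and Notum chr11:120653788-120661175 on the minus strand. Lef1 spans chr3:131110471-131224356, Nkd1 chr8:88521344-88594887, Sp5 chr2:70474923-70477729 and Tcf7l2 chr19:55741810-55933654, all on the plus strand. Lgr5 spans chr10:115450311-115587780 and Tcf7l1 chr6:72626378-72789254 on the minus strand. Exons of Axin2, Lef1, Notum and Tcf7l1 overlap genes on the opposite strand, among them Gm11670 and Notumos, and counting was stranded.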

How the data were processed

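The deposited values are raw read counts per gene that the authors made with featureCounts 2.0.1, counting reversely stranded reads over exons of an Ensembl GRCm38 annotation, per the file headers. The submitters' processing notes name HISAT2 2.2.1, SAMtools 1.9, CASAVA 1.9, FastQC 0.11.8 and deepTools 3.3.0. Libraries were polyA-selected, stranded and read from a single end for 75 bases, per the labels' protocols. The files' command names no option for reads that map to several places. Groups came from the sample titles, and the stage comparison shares its libraries with the others: its GFP controls serve the gain comparison and its E12.5 controls the knockout comparison.

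Counts were tested per comparison with edgeR 4.0.16 in R 4.3.3 (TMM factors, filterByExpr, robust quasi-likelihood fit, two-sided, Benjamini-Hochberg adjustment over all genes tested), after a check on simulated counts. The SE of a log2 fold change is its size divided by the square root of F. CPM printed are on 1 scale of TMM factors over all libraries, while fold changes come from each comparison's own fit. Symbols were matched for 45143 of 46078 identifiers. Reads per library (16527551 to 26658718) limit the precision of Notum, Lgr5 and, at E15.5, Sp5. Replicates differed by more than counting noise, with a chi-square per degree of freedom of 2.48 to 86.3, so none was a repeated deposit. Alternatives were RLE factors, library totals, no filter, DESeq2 1.42.0, a joint fit, a sex term, a replicate block and leaving out each library. The 9 genes, the lists and the rule for named genes (per list and comparison up to 4 called genes of smallest p, or 2 where none was called) were chosen with earlier results of these data known. Of the dorsal telencephalon list, 1 gene is not reported here.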

Additional observations from a re-analysis of the deposited data

How the results depend on the processing

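The lower E15.5 levels of Axin2, Lef1, Sp5, Notum, Tcf7, Tcf7l1 and Tcf7l2 stayed called, with their direction, in every alternative run; leaving out a library gave 7 to 8 members called and 7793 to 11333 genes. Their log2 fold changes without 1 library ran from -2.25 to -2.07 for Axin2, -4.66 to -4.28 for Lef1, -6.38 to -3.73 for Sp5 and -3.54 to -2.89 for Notum, and from -2.26 to -2.08 for Tcf7, -2.57 to -1.85 for Tcf7l1 and -2.94 to -2.02 for Tcf7l2. Nkd1 was called lower with RLE factors (-0.39), library totals (-0.62), DESeq2 (-0.40), all 11 libraries in 1 fit (-0.36) and without GFP control replicate 2 (-0.50). Lgr5 could be tested in 7 alternatives, with log2 fold changes of -3.92 to -2.19, and was called lower in 6 of them, the exception being without GFP control replicate 2 (-2.61, edgeR adjusted p = 0.0834). Scaling by library totals called 3590 genes higher and 6525 lower, against 4963 and 4992 with TMM, and moved the median of all genes to -0.30 from -0.02.

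In the knockout comparison, among the fits that left out 1 E12.5 control, 1 member was called: Tcf7l1 at 0.35 without heterozygote replicate 1. Fits without a knockout library leave 1 library in that group, so calls of members from them are not counted here. With no filter on low counts 4 members were called (Axin2 0.21, Sp5 0.44, Notum 0.94 and Tcf7l1 0.29). All genes called ranged from 603 to 1785 without 1 library and numbered 2266 with no filter, 15 in the joint fit and 654 with a sex term, against 1213. With the sex term, Lef1 (-0.0575), Nkd1 (-0.0123), Lgr5 (0.60) and Tcf7l2 (-0.24) changed sign. Knockout replicate 2 was the only female E12.5 library, so the sex term gives nearly the same fit as leaving that library out. Without 1 library, Lef1 ran from -0.0589 to 0.40, Nkd1 from -0.0137 to 0.18, Lgr5 from -1.99 to 0.61, Tcf7 from -0.0314 to 0.0621 and Tcf7l2 from -0.24 to 0.28. In the gain comparison 0 members were called in every alternative run, and genes called were 81 with DESeq2, 97 in the joint fit, 1 with a sex term and 0 to 415 without 1 library (415 without GFP control replicate 1). The sign changed for Axin2 (-0.0922) and Tcf7 (0.16) with the sex term and, without 1 library, within -0.0781 to 0.107 for Axin2, -0.23 to 0.17 for Lef1, -0.24 to 0.0675 for Tcf7, -0.56 to 0.16 for Tcf7l1 and -0.47 to 0.45 for Tcf7l2. The cause of these changes was not tested. With a sex term the gain estimate rests on gain replicate 2, the only male gain library.

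Same-numbered gain and GFP libraries had correlations of their deviations of 0.180, 0.007 and 0.284, and gain replicate 2 correlated best with GFP replicate 1, so the numbers were not taken as pairs; with knockout numbers they were -0.039, 0.052 and 0.010. With the replicate number as a block, edgeR called 3 genes for gain and 948 for knockout and 0 members in either; Tcf7l2 in gain stood at 0.0409 and Lgr5 in knockout at 0.14 with that replicate block, each with the opposite sign. Depth limited Notum, Lgr5 and Sp5, with as few as 0 counts in an E15.5 library.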
